A study of Triticum aestivum with 12 samples.

Results

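The 2 bread wheat genes that the study names MYB59 after their Arabidopsis counterpart, TraesCS3A02G535100 on chromosome 3A and TraesCS3D02G540600 on chromosome 3D, are described here in every library of the series, out of 107892 genes in the count table. They were chosen by their levels in these same libraries, as a 3A gene that was nearly lost and a 3D gene that was raised in line E82, so the differences between E82 and WT of the pair are given as a description and carry no test. E82 is an RNAi line of wheat BW208, carried through selfing generations, transformed with pghp8.1 together with pGhp-ω/α, plasmids whose inverted repeats target ω-, α- and γ-gliadins under promoters active in the endosperm. WT is BW208 itself, without the plasmids. Total RNA was sequenced from developing grain and from flag leaf, each collected at 20 days after anthesis in a greenhouse, giving 4 groups of 3 libraries: E82 grain, WT grain, E82 leaf and WT leaf. The 3 libraries of a group came from different plants, and E82 stands for a single transformed line. The grain samples hold several tissues together, so fewer cells of a type and less RNA per cell cannot be told apart in any value below.

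MYB59 encodes a transcription factor of the R2R3-MYB family, proteins that bind DNA through a pair of MYB repeats. In Arabidopsis, MYB59 is known to restrain the cell cycle and root growth, to regulate a transporter that moves nitrate and potassium towards the shoot, and to be made from a precursor RNA that is alternatively spliced. Bread wheat carries 3 related genomes, A, B and D, so that a gene usually has counterparts on the 3 chromosomes of a group. Counterparts are close enough in sequence that a short read can belong to more than 1 of them. The reference transcripts used by the study hold a single transcript for each gene of the pair, 1096 bases long for the 3A gene and 1481 bases long for the 3D gene, so no splice form could be followed. A 3B counterpart was not analysed here.

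Library totals ranged between 27172814 and 59921014 assigned reads, and 3 counts corresponded to between 0.0501 and 0.11 CPM, the count scaled to the total of its library. The WT leaf libraries stood apart: they had counts for 31558 to 45655 genes, whereas the E82 leaf libraries had counts for 55916 to 59840 genes. The 9 endosperm marker genes summed to 14.9 to 18.8 TPM, a level per transcript length and library, in E82 grain and to 42.6 to 459 TPM in WT grain, with 8 of the 9 at or under 3 counts in each library of both leaf groups. The 7 TaSWEET13 genes taken as leaf markers summed to 1175 to 3089 TPM in E82 leaf and to 14034 to 22488 TPM in WT leaf, and to no more than 6.82 TPM in E82 grain and 4.18 TPM in WT grain. These markers thus matched the labelled tissues but also differed between the lines, and the part of this in the values below was not tested. Both marker lists were drawn from genes that the study lists from these libraries, many of them because they were lower in E82. Their difference between the lines is therefore not independent of the choice and is not read as a measure of tissue make-up.

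The 3A gene, the more abundant of the pair in WT, was almost without reads in E82 grain. Its level was 0.119, 0.0401 and 0.222 TPM in the 3 E82 grain libraries, against 5.40, 11.6 and 19.4 TPM in the 3 WT grain libraries. All E82 grain libraries thus lay far below all WT grain libraries. The E82 values rested on 6, 2 and 9 reads, rounded from the estimated counts, the second of which is under the floor of 3 counts, whereas the WT values rested on 370, 660 and 1167 reads. Pooled over libraries, 17 reads in E82 grain stood against 2197 in WT grain, which made the level 105 times higher in WT once library totals were taken into account (95% exact interval 65.6 to 181, covering counting error only). The edgeR fit gave a log2 fold change (log2FC, E82 over WT) of -6.78 with a standard error of 0.65.

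In leaf, the 3A gene was lower in E82 by a similar factor at a much higher level in both lines, and it was read in every library. It had 0.912, 4.59 and 4.48 TPM in E82 leaf, against 401, 207 and 178 TPM in WT leaf. The E82 leaf libraries held 58, 273 and 257 reads of it, all above the floor, so that the gene was low but counted in E82 leaf. The groups did not overlap, and the pooled level was 81.4 times higher in WT leaf (95% exact interval 75.0 to 88.4, covering counting error only). The fitted log2FC was -6.05 with a standard error of 0.73.

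The 3D gene was higher in E82 than in WT in grain, whereas in leaf the lines overlapped. Its level was 6.41, 7.86 and 3.80 TPM in E82 grain, against 0.804, 1.38 and 2.65 TPM in WT grain. The lowest E82 grain library was above the highest WT grain library, and the means of 6.02 ± 2.06 TPM in E82 grain and 1.61 ± 0.943 TPM in WT grain (SD, n = 3 each) differed 3.74-fold. The fitted log2FC was 1.73 with a standard error of 0.44. In leaf, the 3D gene had 31.1, 46.0 and 42.0 TPM in E82, against 41.5, 36.2 and 24.2 TPM in WT, and the groups overlapped. The leaf means of 39.7 ± 7.70 TPM in E82 and 34.0 ± 8.86 TPM in WT (SD, n = 3 each) were within the spread between libraries. The leaf fit gave a log2FC of 0.50 with a standard error of 0.27, where the median of all 53874 genes tested stood at 0.21, which left the gene 0.30 above that median. The 3D gene was chosen as raised in E82 in these same libraries, so its grain values restate that choice and do not test it. In flag leaf its log2FC stayed positive in all alternative fits, between 0.23 and 0.68, and the overlap does not show that a small rise is absent.

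**Figure D1:**
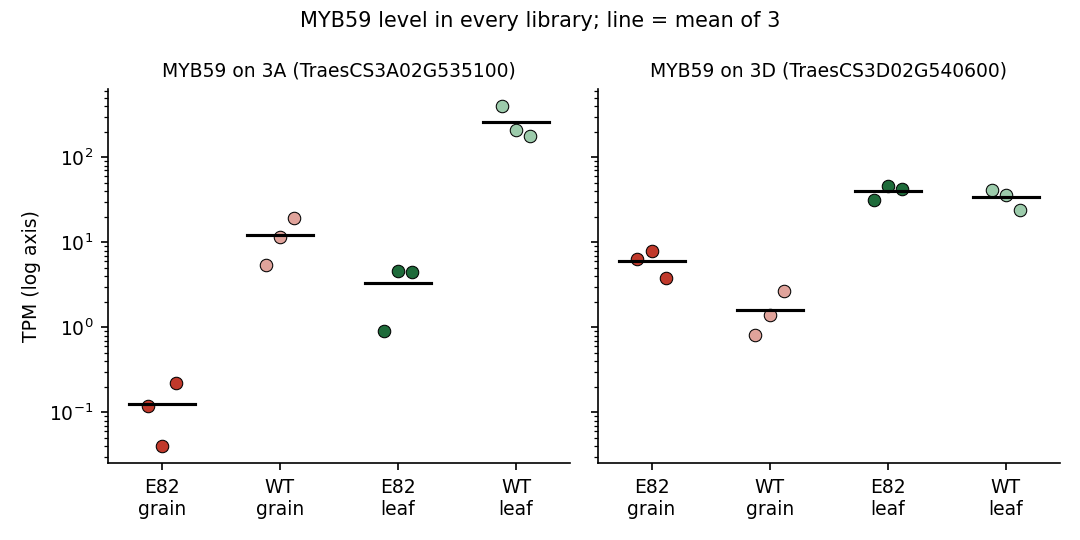
Level of each MYB59 gene in every library (points, TPM on a log axis) with the mean of the 3 libraries of a group (line), E82 to the left of WT within grain and within leaf. The 3A gene was between 0.0401 and 0.222 TPM in E82 grain, against 5.40 to 19.4 TPM in WT grain, while the 3D gene was higher in E82 grain and overlapped between the lines in leaf.

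For scale, 1.31% of the 64706 genes tested in grain were called lower in E82 and 0.0927% higher by edgeR's quasi-likelihood test at an adjusted p under 0.05. In leaf, 0.143% of the genes tested were called lower in E82 and 0.0204% higher. Nothing is read from these shares for the pair itself, since the pair was chosen on the same contrasts.

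The sum of the 2 genes addresses whether their joint level was kept in E82. It leaves out any 3B counterpart, so it is not the total MYB59 level. In grain, the 2 genes together came to 6.52, 7.90 and 4.02 TPM in E82, against 6.21, 13.0 and 22.0 TPM in WT. The E82 and WT grain libraries overlapped, because WT replicate 1 had a sum as low as those of E82. The mean sums were 6.15 ± 1.97 TPM in E82 grain and 13.7 ± 7.94 TPM in WT grain (SD, n = 3 each), a log2 ratio of -1.16, and the difference of the means was smaller than the SD of WT grain. On CPM scaled by the trimmed mean of M values (TMM) in place of TPM, the log2 ratio in grain was -0.86. The 3 WT grain libraries also differed in their endosperm markers, which summed to 459, 119 and 42.6 TPM in replicates 1, 2 and 3, and the part of this in the spread of MYB59 was not tested.

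In leaf, the summed level stayed far below WT. It came to 32.0, 50.5 and 46.4 TPM in E82 leaf, against 443, 243 and 203 TPM in WT leaf, with no overlap. The means were 43.0 ± 9.75 TPM in E82 leaf and 296 ± 128 TPM in WT leaf (SD, n = 3 each), a log2 ratio of -2.79, or 6.89 times higher in WT. With TMM-scaled CPM in place of TPM, the log2 ratio in leaf was -2.08, and the sums again did not overlap, at 60.3 to 84.2 CPM in E82 leaf and 207 to 473 CPM in WT leaf.

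**Figure D2:**
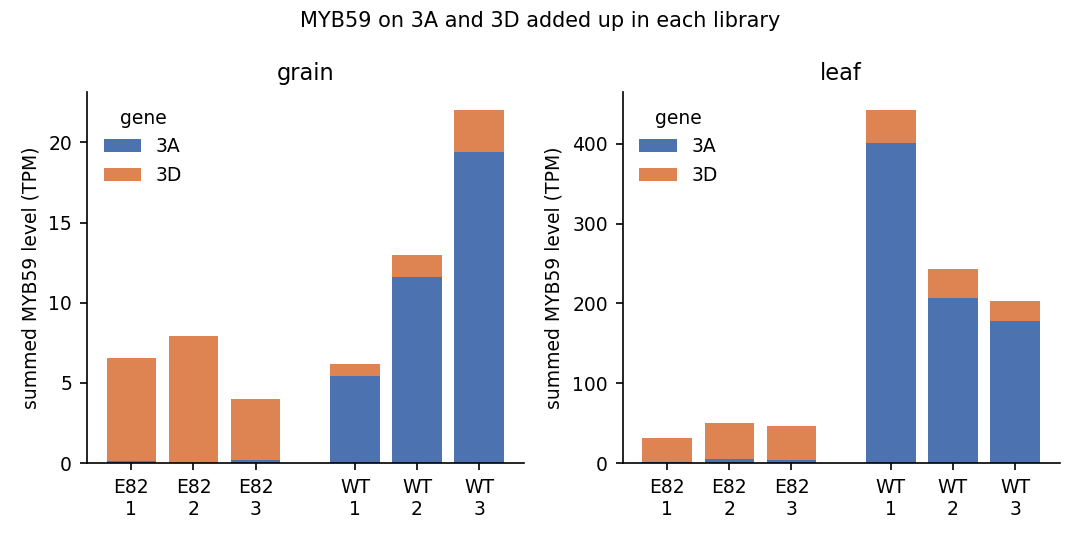
Summed level of the 2 MYB59 genes in each library (stacked bars from 0, TPM), with the 3A gene below and the 3D gene above, for grain and for leaf on separate axes. The E82 bars consist almost wholly of the 3D gene; in grain their heights of 4.02 to 7.90 TPM reach that of the lowest WT library, while in leaf the E82 bars end at 50.5 TPM, below every WT bar.

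The share of the 3D gene in the sum showed the change of source most directly, being free of the scaling between libraries. The 3D gene gave 98.2, 99.5 and 94.5% of the summed TPM in E82 grain, against 13.0, 10.6 and 12.0% in WT grain. It gave 97.1, 90.9 and 90.3% in E82 leaf, against 9.38, 14.9 and 12.0% in WT leaf. In WT, the 3A gene thus supplied most of the sum in all 6 libraries, and in E82 the 3D gene did. As a share of assigned reads, without the correction for length, the 3D gene took 96.0 to 99.7% in E82 grain, 14.7 to 17.8% in WT grain, 93.1 to 98.0% in E82 leaf and 13.0 to 20.2% in WT leaf. The 95% Wilson interval of the least deeply read library, E82 grain replicate 3 with 224 reads of the pair, was 92.5 to 97.9%.

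The balance between the 2 genes was also set side by side between tissues. In WT, the 3A gene was 6.72 to 8.39 times as abundant as the 3D gene in grain and 5.73 to 9.66 times as abundant in leaf, per length. The mean 3D share in WT was 11.9 ± 1.16% in grain and 12.1 ± 2.75% in leaf (SD, n = 3 each), a difference of -0.20 percentage points (exact two-sided permutation test, p = 1). In E82 the mean 3D share was 97.4 ± 2.59% in grain and 92.8 ± 3.77% in leaf (SD, n = 3 each), a difference of 4.58 percentage points (exact two-sided permutation test, p = 0.2). With 3 libraries against 3 the smallest p of this test is 0.1, so neither comparison could pass 0.05. As the level of the 3A gene over that of the 3D gene, E82 averaged 0.0273 in grain and 0.0787 in leaf.

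Both MYB59 genes were expressed far more strongly in flag leaf than in grain, in both lines. This comparison was not used to choose the pair and was tested with edgeR across all genes. The 3D gene averaged 6.02 ± 2.06 TPM in E82 grain and 39.7 ± 7.70 TPM in E82 leaf, and its log2FC (grain over leaf) was -3.11 (standard error 0.30, adjusted p = 7.13e-05). In WT it averaged 1.61 ± 0.943 TPM in grain and 34.0 ± 8.86 TPM in leaf, and the log2FC in this line was -4.13 (standard error 0.51, adjusted p = 0.00409). All grain libraries were below all leaf libraries of the same line. Both members were called lower in grain, where 23.2% of the 64737 genes tested in E82 and 8.59% of the 64739 genes tested in WT were called lower. In E82, 17593 genes were called higher and 15025 lower, a split that became 24709 and 10885 where library totals alone set the scale.

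The 3A gene kept the same direction in spite of its low level in E82. It averaged 0.127 ± 0.0910 TPM in E82 grain and 3.33 ± 2.09 TPM in E82 leaf (SD, n = 3 each), and its log2FC was -5.09 (standard error 0.93, adjusted p = 0.00234, edgeR). The E82 grain side of this test rested on 6, 2 and 9 reads rounded from estimated counts. Reads of the 3D gene assigned to the 3A gene would carry the tissue difference of the 3D gene, and their part was not tested. In WT it averaged 12.1 ± 7.01 TPM in grain and 262 ± 121 TPM in leaf, and the log2FC in this line was -4.19 (standard error 0.56, adjusted p = 0.00518, edgeR). In WT, the 2 genes had nearly the same tissue difference, 18.3-fold for the 3A gene and 17.5-fold for the 3D gene on the fitted scale. In E82 the fitted differences were 34.2-fold for the 3A gene and 8.64-fold for the 3D gene. Whether the tissue difference itself differed between the lines was not tested, since it rests on the contrasts that chose the genes.

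In order of level, the groups of the 3A gene ran WT leaf, WT grain, E82 leaf and E82 grain, and no neighbouring groups in this order overlapped. For the 3D gene, E82 leaf and WT leaf were highest and not separable, followed by E82 grain and then WT grain. Between libraries of 1 group the 3A gene varied 5.53-fold in E82 grain, 3.59-fold in WT grain, 5.04-fold in E82 leaf and 2.25-fold in WT leaf from lowest to highest. The 3D gene varied 2.07-fold in E82 grain, 3.29-fold in WT grain, 1.48-fold in E82 leaf and 1.71-fold in WT leaf. In WT grain both genes were lowest in replicate 1 and highest in replicate 3, and in WT leaf both were highest in replicate 1 and lowest in replicate 3.

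None of the 24 values of the pair was a whole number of reads, whereas 42.9% of the values above 0 over all genes were whole. A value that is not whole holds reads that the authors' program divided among transcripts. The few reads given to the 3A gene in E82 are therefore uncertain, and how many of them came from the 3D gene or another counterpart was not tested. For each read of the 3D gene per length, the 3A gene had 0.0051 to 0.0583 in E82 grain and 0.0294 to 0.107 in E82 leaf.

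The genes next to the MYB59 genes in the order of gene IDs were compared between the lines in the same way. In E82 grain, 5 of those around the 3A gene were called lower, where 1.31% of all genes tested were. Around the 3D gene, 2 were called higher, where 0.0927% of all genes tested were. The order of IDs is used here as a stand-in for position, and 45 IDs follow the 3A gene on its chromosome while 52 follow the 3D gene. Of the 20 nearest IDs of the 3A gene, 10 to either side, 10 passed the filter on low counts in grain, and all 10 had a negative log2FC between E82 and WT. By edgeR's adjusted p, 5 of the 10 were called lower in E82 grain and none higher, or 1 where all 12 libraries shared an estimate of the spread. Their median log2FC was -7.12, or -5.40 with the 4 genes that had no read in E82 grain set at their bound, beside a median of 0.01 over all genes tested. In 10 of the 20, all E82 grain libraries were below all WT grain libraries, and 6 had no count in either. The share of all genes that separated in this way was not counted, so the 10 are not read as particular to the neighbours. The 4 genes without a read in E82 grain passed the filter on WT grain reads alone, so their sign was fixed by it. Others averaged 0.0076 to 0.213 CPM in E82 grain, too little to pass without their WT grain reads. The run of negative signs and the median are therefore not free of the filter, and nothing is read from them.

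The clearest neighbour was TraesCS3A02G535300, to which the files give no name. It had no read in E82 grain, against 1386, 2388 and 851 reads in WT grain. With the floor of 3 counts taken over the group, it was at least 1256-fold lower in E82 grain (adjusted p = 0.000246, edgeR). In leaf it had 5, 10 and 5 reads in E82, against 8064, 13665 and 11104 reads in WT. It was the only one of the 7 tested neighbours that was called lower in E82 leaf (adjusted p = 0.0022, edgeR), where 0.143% of all genes tested were. All 7 had a negative log2FC in leaf, with a median of -7.77, or -5.35 with the 3 unread genes at their bound. Those 3 passed the filter on WT leaf reads alone, and none was read in every WT leaf library, so their sign was fixed by the filter. Others, TraesCS3A02G535300 among them, averaged 0.118 to 0.263 CPM in E82 leaf, too little to pass without their WT leaf reads. The run of negative signs in leaf is therefore not free of the filter either, and nothing is read from it. In leaf, 1 of the 20 neighbours had all E82 libraries below all WT libraries, and 13 had no count in either line. The share of all genes that separated so in leaf was not counted. The next ID before the 3A gene, TraesCS3A02G535000, had 0 reads in all E82 grain libraries against 53, 15 and 219 reads in WT grain, which did not pass the test (adjusted p = 0.1, edgeR), and the next ID after it, TraesCS3A02G535200, had no read in any library.

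Around the 3D gene, few neighbours passed the test. Of its 20 nearest IDs, 12 were tested in grain and 11 had a positive log2FC and TraesCS3D02G541100 one of -0.09, with a median of 1.42, close to the 1.73 of the 3D gene itself. Only 2 of the 12, TraesCS3D02G540100 and TraesCS3D02G540900, were called higher in E82 grain by edgeR, with adjusted p values of 0.0454 and 0.0487 near the threshold, and neither stayed under it when any E82 grain library was left out or when the scaling used library totals alone. In 7 of the 20, all E82 grain libraries were above all WT grain libraries, where again the share over all genes was not counted. Of the 11 with a positive log2FC, 1 had no read in WT grain and passed the filter on E82 grain reads alone. Others averaged 0.079 to 0.234 CPM in WT grain, too little to pass without their E82 grain reads. The count of positive signs and the median are therefore not free of the filter, and nothing is read from them. TraesCS3D02G540900 had 2503, 3059 and 1960 reads in E82 grain, against 357, 1169 and 1101 reads in WT grain.

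In leaf, 9 neighbours of the 3D gene were tested and 7 had a positive log2FC, with a median of 1.17 beside 0.21 over all genes. The highest log2FC, 8.04, was of a gene with 0.0809 CPM in WT leaf, which passed the filter only through its E82 leaf reads. None of the 9 was called by edgeR, and in 4 of the 20 all E82 leaf libraries were above all WT leaf libraries. The share of all genes that separated so was not counted, and WT leaf libraries had counts for fewer genes than E82 leaf libraries. Nothing is therefore read from the 4. TraesCS3D02G540900 had 32172, 28528 and 21694 reads in E82 leaf, with a log2FC of 1.55 (adjusted p = 0.0591, edgeR), which 7 of 15 alternatives moved under the threshold, while the 3D MYB59 gene stood at 0.50. Without WT leaf replicate 1, 4 of the neighbours were called higher in E82 leaf. That fit called 7763 genes higher in all, against 11 in the main fit, so nothing is read from these calls. The next ID before the 3D gene, TraesCS3D02G540500, had 81, 219 and 115 reads in E82 grain, against 13, 0 and 0 reads in WT grain (adjusted p = 0.24, edgeR), and the next ID after it, TraesCS3D02G540700, had no read in any library.

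**Figure D3:**
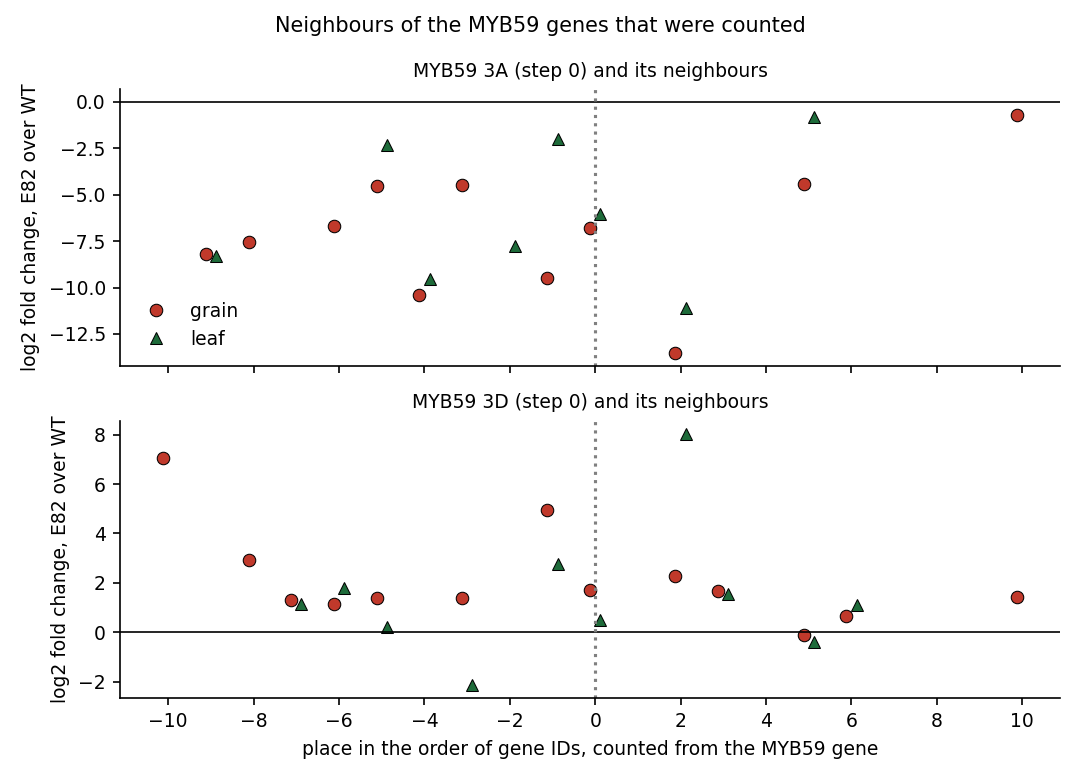
Fitted log2 fold change (E82 over WT) of each MYB59 gene at step 0 and of those of its 10 neighbours on either side that passed the count filter, in grain (circles) and leaf (triangles), by place in the order of gene IDs. All points around the 3A gene lie below 0 and most around the 3D gene lie above it. Many of these neighbours passed the filter only through the line where they were high. Values of genes with no read in a group depend on the small count that the fit adds and are not bounds.

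Other MYB genes give the setting in which the pair changed. A list of 14 held 9 genes known from cereal seed work, namely 3 copies each of GAMYB, which activates storage protein and α-amylase genes, MCB1, a MYB-related regulator described in barley seeds, and MYBS3, a sugar-regulated repressor of α-amylase in rice. The other 5, which are 3 copies of a MYB-related gene named after Arabidopsis AT2G38090 and 2 of GLK1, a regulator of chloroplast development, were chosen by the study on these libraries, so their direction is not independent evidence. In grain, 13 of the 14 were tested, and 3 were called lower in E82 and none higher, where 1.31% of all genes tested were called lower and 0.0927% higher. All 3 were among the genes chosen by the study, so these calls are no independent result. The median log2FC was -0.37 beside 0.01 over all genes. Apart, it was -0.26 for the 9 genes from seed work, none of them called, and -3.85 for the tested genes chosen by the study. In leaf, 11 were tested and none was called by edgeR, with a median of 0.91 beside 0.21 over all genes. Without WT leaf replicate 1, 3 of them were called higher. That fit called 7763 genes higher in all, against 11 in the main fit, so nothing is read from the 3.

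The 3 lower genes in E82 grain were all copies of AT2G38090. The copy on 1D, TraesCS1D02G275400, averaged 3.23 ± 1.57 TPM in E82 grain and 48.5 ± 27.6 TPM in WT grain (SD, n = 3 each), and its log2FC was -4.23 (adjusted p = 0.00974, edgeR). The copies on 1A and 1B had log2FC values of -3.48 and -3.22 (adjusted p = 0.0147 and 0.0398, edgeR). The 1B call, of TraesCS1B02G285000, was also lost in 5 of 9 other settings (adjusted p = 0.0522 to 0.304), the replicate block among them (adjusted p = 0.116), and without WT grain replicate 1 or 2 (adjusted p = 0.0813 and 0.116). None of the 3 was called without E82 grain replicate 1 or without replicate 2, and 1 was called without replicate 3. The endosperm markers were also lower in E82 grain, at 14.9 to 18.8 TPM against 42.6 to 459 TPM in WT grain, and their part in this was not tested. Many of these markers were themselves listed by the study as lower in E82 grain, so this fall is not independent.

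The 9 genes from seed work did not pass the test between the lines in either tissue. The GAMYB copy on 3A, TraesCS3A02G336500, came nearest in grain, with 0.698 to 1.62 TPM in E82 and 1.96 to 9.12 TPM in WT and a log2FC of -2.68 (adjusted p = 0.0822, edgeR), and it passed with DESeq2 and without WT grain replicate 3 (adjusted p = 0.00115 and 0.012). The GAMYB copies on 3B and 3D had log2FC values of -0.22 and -0.47. Each MCB1 and MYBS3 copy had a log2FC between -0.37 and 0.02 in grain. No copy of any listed gene was called higher in E82 grain, where 0.0927% of all genes tested were. The 3 copies of AT2G38090 were low together, unlike MYB59 on 3A and 3D. The study chose the former on these libraries, and the MYB59 pair was chosen for its opposite directions, so this contrast is no result.

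Between tissues the list split by gene. In E82, 5 of the 14 were called higher in grain and 6 lower, where 27.2% of all genes tested were called higher and 23.2% lower. In WT, 3 were called higher and 3 lower, where the shares over all genes were 21.3% and 8.59%. The 3 AT2G38090 copies had no read in any leaf library and were higher in grain, at least 190-fold to 546-fold in E82 and at least 1951-fold to 3220-fold in WT with the floor of 3 counts over the group. The 2 GLK1 copies went the way of MYB59, as leaf genes: TraesCS7A02G339800 had no read in E82 grain and averaged 20.5 ± 5.59 TPM in E82 leaf, at least 1663-fold lower in E82 grain. The MYBS3 copies were lower in E82 grain than in E82 leaf, with log2FC values of -1.32, -1.23 and -1.65 (adjusted p = 0.000823, 0.00303 and 0.000216, edgeR), and did not pass in WT. With library totals alone the 1B copy, TraesCS1B02G232800, missed the threshold in E82 (log2FC -0.61, adjusted p = 0.0563, edgeR).

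MCB1 on 1B, TraesCS1B02G232300, was the only one of the 9 that was called lower in grain in both lines, at 20.3 ± 3.12 TPM in E82 grain and 46.7 ± 9.21 TPM in E82 leaf, and at 23.3 ± 6.36 TPM in WT grain and 57.8 ± 5.91 TPM in WT leaf (SD, n = 3 each). Its log2FC was -1.58 in E82 and -1.03 in WT (adjusted p = 0.000459 and 0.0241, edgeR), and in WT the call was lost without any 1 of the 3 WT grain libraries (adjusted p = 0.0617 to 0.0708). The GAMYB copies on 3B and 3D were higher in E82 grain than in E82 leaf, with log2FC values of 1.48 and 1.15 (adjusted p = 0.0118 and 0.0318, edgeR), and the 3D call was lost without any 1 of the 6 libraries. Per length, the level of the 3A MYB59 gene in WT leaf, 178 to 401 TPM, was above that of any single copy of the list in any leaf library, the highest of which was 81.8 TPM.

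**Figure D4:**
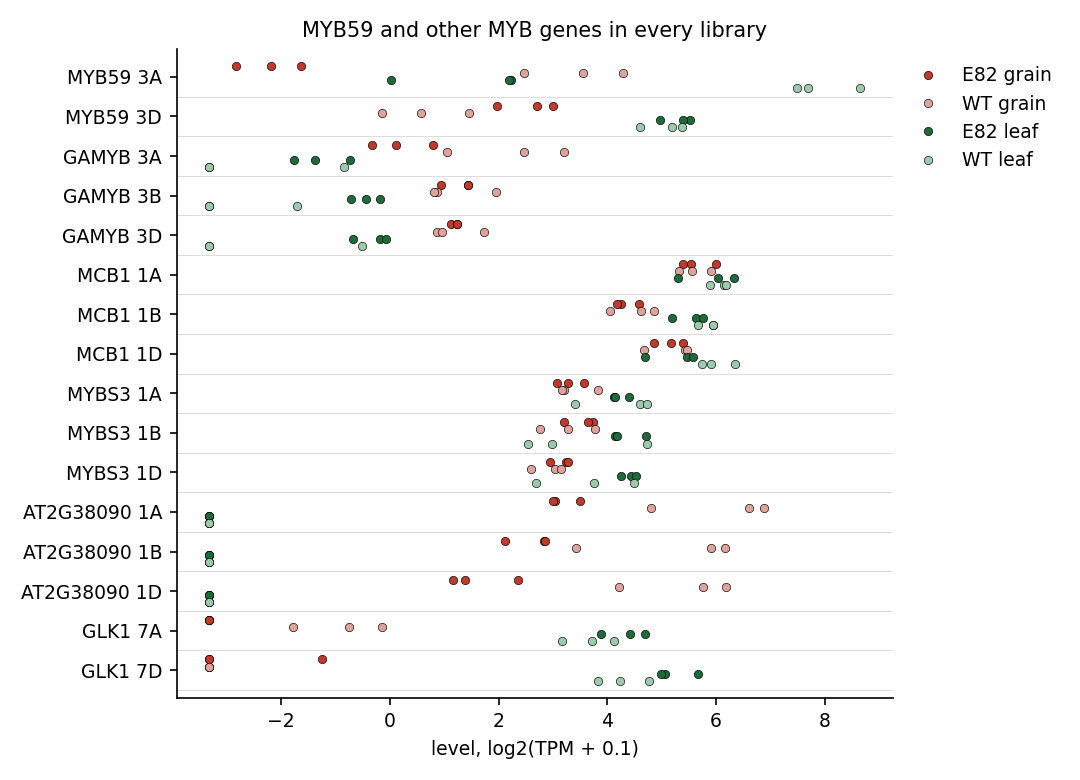
Level of the 2 MYB59 genes and the 14 other MYB genes in every library, as log2(TPM + 0.1), where the leftmost position is 0 TPM; groups are coloured and stacked with E82 above WT. MYB59 on 3A covers the widest range among genes read in all libraries, and the 3 AT2G38090 copies are at 0 in leaf.

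The genes whose levels ran most like those of the pair were ranked by Pearson's r of log2(CPM + 1) over the 12 libraries, among 51843 genes that averaged 1 CPM or more. The points share libraries and depth and fall into 4 groups, so r is a description and carries no p. For the 3A gene the 5 nearest had r between 0.96 and 0.98, and 4 of them are genes of chromosome 1B and 1 of chromosome 3A. The first, TraesCS1B02G117400, had no read in E82 grain, 5.67 ± 4.44 CPM in WT grain, 0.451 ± 0.422 CPM in E82 leaf and 52.8 ± 31.4 CPM in WT leaf (SD, n = 3 each). Low in both E82 tissues and highest in WT leaf, it has the order of groups of the 3A gene.

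For the 3D gene the 5 nearest had r between 0.98 and 0.99 and 4 of them are genes of chromosomes 6A, 6B and 1D, while 1 is not placed on a chromosome. The first, TraesCS6A02G344800, had 19.4 to 26.3 CPM in E82 grain, 10.9 to 14.7 CPM in WT grain, 59.1 to 78.8 CPM in E82 leaf and 60.5 to 64.8 CPM in WT leaf, the same order of groups as the 3D gene with a smaller range. For the summed level the 5 nearest had r between 0.97 and 0.99, led by TraesCS3A02G351700, with 9.57 ± 1.99 CPM in E82 grain, 10.5 ± 1.46 CPM in WT grain, 17.3 ± 2.28 CPM in E82 leaf and 26.1 ± 1.68 CPM in WT leaf (SD, n = 3 each). On log2(TPM + 1), 3 of the 5 nearest to the 3A gene, 4 of the 5 nearest to the 3D gene and all 5 of those nearest to the sum were again among the 5 nearest. The files do not pair these IDs with names.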

How the data were processed

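The authors trimmed paired reads with Trimmomatic 0.36, assigned them to IWGSC RefSeq v1.1 transcripts with kallisto 0.44.0 and summed them per gene with tximport. The deposited gene table holds estimated counts, not whole numbers, and the deposited library tables hold estimated counts and TPM per transcript. Their own tests used edgeR 3.22.5 in R 3.6.3. Kallisto divides reads among near-identical copies, so counterparts can exchange counts.

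Here counts were rounded and tested with edgeR 4.0.16 (quasi-likelihood, TMM, Benjamini-Hochberg adjusted p under 0.05, summed CPM over 1), with the 6 libraries of a comparison in each fit. Levels are TPM summed per gene. Standard errors are the log2FC divided by the root of F. DESeq2 1.42.0, limma 3.58.1 on TPM with a pseudocount of 1 or 0.1 before taking log2, RLE, library totals, other filters, a shared spread, a replicate block and leaving out each library were tried as alternatives. The fit was also run on simulated data with 200 changed genes, all well counted and with a capped spread. That run does not cover counts near the floor, and no result here rests on it. Named genes are the pair, the 14 MYB genes, the nearest ID on either side and the 5 nearest by r, the first of which is printed; TraesCS3A02G535300, TraesCS3D02G540100, TraesCS3D02G540900 and TraesCS3D02G541100 were named after their values were seen. Members and lists were chosen with earlier results of these data known. The RefSeq table of assembly IWGSC CS RefSeq v2.1 matched 0 of the 2 IDs, so no sequence or coordinate is given. Depth ranged between 27172814 and 59921014 reads.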

Additional observations from a re-analysis of the deposited data

How the results depend on the processing

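The tissue calls of both MYB59 genes held in both lines under all 9 other settings and in all 6 fits that left out a library: in these, log2FC (grain over leaf) ran between -5.84 and -1.79 for the 3A gene in E82, -4.60 and -3.68 for it in WT, -3.37 and -2.51 for the 3D gene in E82, and -4.57 and -3.77 for it in WT. The 3A fits in E82 were added after the data were seen. Log2FC of the 3A gene between E82 and WT in grain was -3.39 and -5.65 with limma on log2(TPM + 1) and log2(TPM + 0.1), where the pseudocount bounds it by construction, and -7.47 to -6.32 with a library left out. With TMM-scaled CPM in place of TPM, the 3D share was 16.4% in WT grain and 16.5% in WT leaf, since CPM is not divided by length, and the summed leaf ratio was -2.08. The median log2FC of all genes, grain over leaf in E82, was 0.24, and 0.85 where library totals alone set the scale; relative to it the 3D gene stood at -3.35 and -3.36 and the 3A gene at -5.34 and -5.36.

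Counts of called genes moved more. Grain against leaf gave 32618 in E82, against 19373 with 12 libraries sharing 1 spread; in WT it gave 19363, 5096 to 21657 with a library left out. E82 against WT in grain gave 905, against 2604 with DESeq2, 1600 with every gene that had a count, 165 with a shared spread, 550 with limma on log2(TPM + 1) and 298 to 1669 with a library left out. In leaf it gave 88, against 148 with library totals alone, 5716 with DESeq2, 4005 with filterByExpr, 4367 with a shared spread, 1270 and 4016 with limma on log2(TPM + 1) and log2(TPM + 0.1), and 7 to 8782 with a library left out, the highest without WT leaf replicate 1. The GAMYB copies, near 0 between the lines in grain, changed sign: that on 3B with limma on log2(TPM + 1) (0.033) and log2(TPM + 0.1) (0.065), that on 3D with the second of these (0.0084), and with a library left out they ran between -0.48 and 0.14 and between -0.76 and 0.15. The causes were not tested. Same-numbered libraries did not deviate together (lowest correlation of a pair -0.05, none over 0.1), and with the replicate block the counts were 5718 for grain against leaf in WT and 46 for E82 against WT in leaf, with no call of MYB59 changed. At these depths 3A values of under 3 reads in E82 grain cannot be told from 0.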
